A study of Mus musculus with 6 samples.

Results

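The CD28 family of T-cell receptors was followed here through 5 genes: the costimulators Icos and Cd28 and the inhibitory receptors Ctla4, Pdcd1 and Btla. Every probe set that the annotation of the array gave to 1 of these genes alone was taken, which made 8 of the 34945 probe sets that named a single gene, and 5 of 18193 genes. Icos was read by 3 probe sets, Cd28 by 2, and Ctla4, Pdcd1 and Btla by 1 each, and 0 further probe sets were shared between a member and another gene. The arrays came from DN2 cells, thymocytes at the stage at which progenitors settle on the T-cell fate, sorted from the thymus of mouse fetuses. There were 3 arrays of E2A-deficient and 3 of wild-type cells, both on the FVB background, and the study asked which genes depend on E2A there. E2A stands for the E protein transcription factors made from Tcf3. The labels give neither the mutant allele nor the fetal age, the sorting gate or the number of animals behind an array, so a p-value here speaks only for the spread among these arrays.

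CD28-family receptors sit on lymphocytes and set how strongly an antigen signal is answered. CD28 binds CD80 and CD86, and CTLA-4 binds the same ligands more tightly and blocks the answer. ICOS binds ICOS ligand, and like CD28 it passes its signal to PI3 kinase. PD-1, the product of Pdcd1, binds PD-L1 and PD-L2 and recruits the phosphatase SHP-2, and BTLA binds the TNF-receptor family member HVEM. In the thymus CD28 is known to rise after the pre-TCR has signalled, later than DN2. ICOS and PD-1 are best known from activated and follicular helper T cells, and in mice they also mark innate lymphoid cells and their precursors.

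Icos and Pdcd1 were far higher in E2A-deficient cells, while Cd28, Ctla4 and Btla gave no call. On the scale used throughout, log2(intensity + 1), the brightest probe set of Icos rose by 3.10 and Pdcd1 by 2.88. In these bulk samples more cells with a transcript and more transcript per cell cannot be told apart. Of the 8 probe sets 4 were called higher, all 3 of Icos and that of Pdcd1, 0 were called lower and 4 were not called (limma, Benjamini-Hochberg adjusted p under 0.05 over 45037 probe sets). Over all probe sets 1.21% were called higher and 0.58% lower. As 3 of the 4 read Icos, the calls fell in 2 of 5 genes, against 1.92% of all genes by brightest probe set. The members were chosen with earlier results of these data known, so these shares are a description only. The 3 E2A-deficient arrays lay above all 3 wild-type arrays in 6 of the 8 member probe sets, against 10.1% of all probe sets, and below them in 0, against 6.79%.

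**Figure D1:**
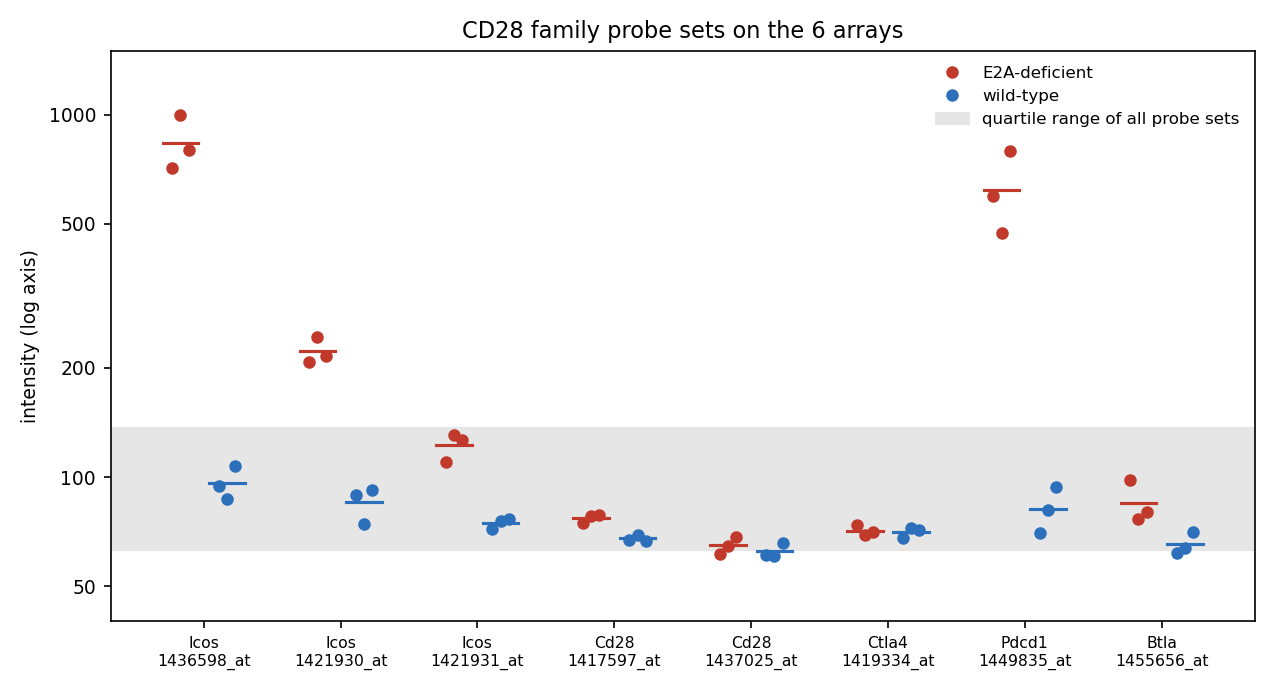
Intensity of each of the 8 member probe sets on the 6 arrays (log axis), with 3 E2A-deficient arrays left of 3 wild-type arrays, a line at each group mean, and the quartile range of all probe sets shaded. Icos 1436598_at and Pdcd1 stand above 470 on every E2A-deficient array, while Cd28, Ctla4 and Btla stay within the range between 60.7 and 98.2 on all arrays.

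The arrays were alike in general level. Median intensity was 77.4 to 79.0 on the 6 arrays, lower quartiles were 62.9 to 64.5 and upper quartiles 131 to 136, and no detection calls were used here. Tcf3, the gene of the E2A proteins, was lower in E2A-deficient cells by its brightest probe set, at 249 ± 27.9 against 437 ± 34.4 in wild-type cells (SD, n = 3 each; log2 change -0.81, limma adjusted p = 0.00864). With the beta-actin ratio given next in the fit Tcf3 was not called (-0.75, limma adjusted p = 0.150). The mutant allele is not described, so whether its probes lie in a removed part cannot be told. The wild-type arrays differed in Xist, at 3055, 4456 and 58.7, so they held unlike mixes of female and male cells, while the E2A-deficient arrays had 1901, 1247 and 2154. The 5' over 3' signal of the beta-actin controls, a sign of RNA quality or amplification, was -2.60, -2.65 and -2.74 on the log2 scale in E2A-deficient samples. In wild-type samples it was -3.26, -2.63 and -3.35. Wild-type replicates 1 and 3 were lowest, so the ratio partly goes with the group. A call lost with this covariate therefore does not separate RNA quality from genotype, which was not tested.

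Icos encodes the inducible costimulator. Its brightest probe set, 1436598_at, read 714, 997 and 799 in E2A-deficient cells, against 94.2, 87.3 and 107 in wild-type cells. No wild-type array came near an E2A-deficient one. The change was 3.10 (SE 0.131, 95% interval 2.79 to 3.40, limma adjusted p = 1.52e-04), an 8.56-fold difference with an interval of 6.92 to 10.6. In E2A-deficient cells the probe set was brighter than 96.3% of all probe sets, and in wild-type cells than 63.5%. By this measure Icos was number 2 of the 18193 genes in its upward change.

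The other probe sets of Icos went the same way by less. The probe set 1421930_at gave 208, 243 and 216 in E2A-deficient cells, against 89.1, 74.4 and 92.1 in wild-type cells (log2 change 1.38, SE 0.0985, limma adjusted p = 0.00128). The probe set 1421931_at gave 110, 131 and 127 in E2A-deficient cells, against 72.0, 75.9 and 76.9 in wild-type cells (0.70, SE 0.0769, 0.00666). The groups did not overlap in either. With the beta-actin ratio in the fit, the change of 1421931_at stayed at 0.70, but it was no longer called (limma adjusted p = 0.110). The intervals of the 3 probe sets, 2.79 to 3.40, 1.15 to 1.61 and 0.52 to 0.88, did not overlap each other, so the size of the Icos change depends on the probe set that reads it. All 3 wild-type means, 96.2, 85.2 and 74.9, lay between the medians and the upper quartiles of the arrays or just below the medians. How much of the wild-type signal of Icos or Pdcd1 is background was not measured, so their changes and folds are those of the deposited intensities.

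Pdcd1 encodes the inhibitory receptor PD-1. Its probe set, 1449835_at, read 595, 470 and 795 in E2A-deficient cells, against 70.3, 81.0 and 94.1 in wild-type cells. The lowest E2A-deficient array stood far above the highest wild-type array. The change was 2.88 (SE 0.191, 95% interval 2.44 to 3.33, limma adjusted p = 9.60e-04), or 7.38-fold in intensity with an interval of 5.42 to 10.1. Pdcd1 was number 5 of all genes in its upward change, and its probe set was brighter than 94.8% of all probe sets in E2A-deficient cells and 53.1% in wild-type cells. Among the E2A-deficient arrays Pdcd1 was highest in replicate 3 and Icos in replicate 2.

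Cd28 encodes the founding costimulator. Its brighter probe set, 1417597_at, read 74.7, 77.9 and 78.8 in E2A-deficient cells, against 67.3, 69.4 and 66.7 in wild-type cells. The groups did not overlap, but the change was small, 0.18 (SE 0.0529, 95% interval 0.06 to 0.31), and gave no call (limma adjusted p = 0.183). The other probe set, 1437025_at, read 61.4, 64.7 and 68.3 in E2A-deficient cells, against 61.0, 60.7 and 65.7 in wild-type cells, and its groups overlapped (0.05, limma adjusted p = 0.867). The brighter one lay below the array median on 5 of 6 arrays and the other on all 6.

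Ctla4 encodes the inhibitory rival of CD28. Its probe set, 1419334_at, read 73.6, 69.1 and 70.8 in E2A-deficient cells, against 68.0, 72.2 and 71.3 in wild-type cells. The groups overlapped, and the probe set lay below the array median on all 6 arrays. The change was 0.01 (SE 0.0555, 95% interval -0.12 to 0.14, limma adjusted p = 0.974). The sign turned to negative when wild-type replicate 1 or E2A-deficient replicate 1 was left out, and with the beta-actin covariate.

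Btla encodes the B and T lymphocyte attenuator. Its probe set, 1455656_at, read 98.2, 76.4 and 80.1 in E2A-deficient cells, against 61.9, 63.7 and 70.6 in wild-type cells. Every E2A-deficient array lay above every wild-type array, and E2A-deficient replicate 1 stood highest. The change of 0.37 (SE 0.103, 95% interval 0.12 to 0.61) gave no call (limma adjusted p = 0.174). Without E2A-deficient replicate 1 it was 0.26.

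**Figure D2:**
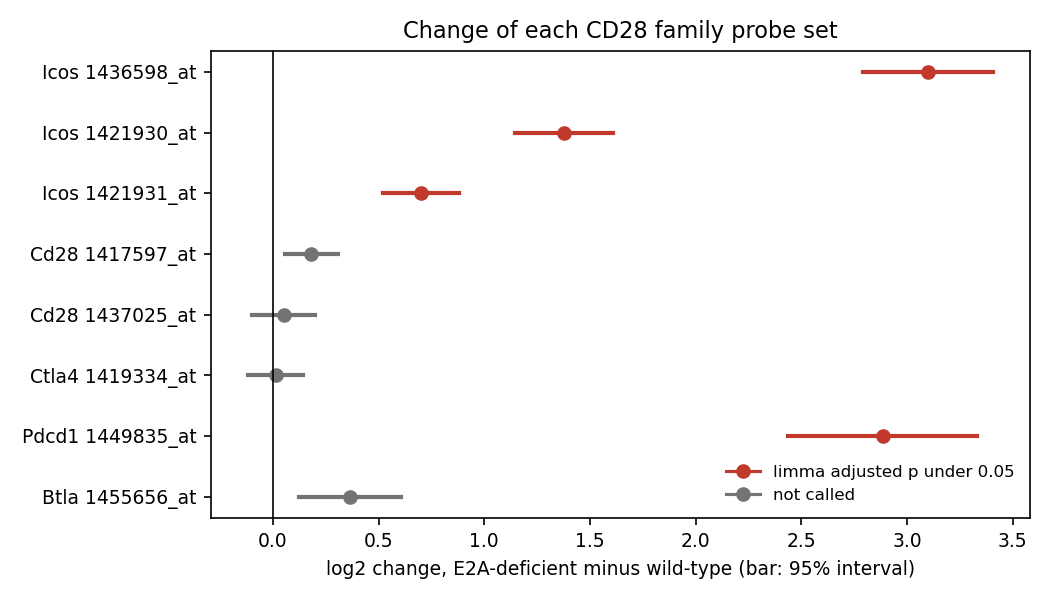
Log2 change of each of the 8 member probe sets, E2A-deficient minus wild-type, as a point with its 95% interval, red where the limma adjusted p was under 0.05 and grey where it was not. The 3 Icos probe sets and Pdcd1 lie between 0.70 and 3.10, and the probe sets of Cd28, Ctla4 and Btla between 0.01 and 0.37.

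The members were compared with each other by the difference of their log2 signals on each array, with the brightest probe set of each and 10 pairs in all. The changes of Icos and Pdcd1 differed by 0.21 (exact permutation test over arrays, two-sided p = 0.80). Icos exceeded Cd28 by 2.92, Ctla4 by 3.08 and Btla by 2.73, and Pdcd1 exceeded Btla by 2.52. In 8 of the 10 pairs the E2A-deficient arrays did not overlap the wild-type arrays, which gives an exact permutation p of 0.10, the smallest that 3 arrays against 3 allow (0.125 adjusted over the 10 pairs). Among the 8 were pairs of uncalled genes, Cd28 over Ctla4 by 0.17 and Ctla4 under Btla (-0.35), so this p does not single out Icos and Pdcd1.

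Cd28, Ctla4 and Icos lie side by side in that order, with 0 protein-coding genes between them, in the RefSeq gene table of mouse assembly GRCm38.p6. Within this cluster only Icos was called. On the Cd28 side of the cluster, Raph1, Cyp20a1, Nbeal1 and Carf did not pass, while Abi2, an adaptor of actin regulation, rose by 0.55 (SE 0.0946, limma adjusted p = 0.0393). With 5 arrays, whichever was dropped, Abi2 was no longer called (limma adjusted p 0.0614 to 0.140). On the Icos side Pard3b, Nrp2, Ino80d, Ndufs1 and Eef1b2 did not pass. Near Pdcd1 the polysialyltransferase gene St8sia4 rose by 0.93 (SE 0.101, limma adjusted p = 0.00636), though with the beta-actin covariate, at 0.94, it was not called (0.106). The genes around Btla, among them Cd200 and Cd200r4, gave no call. Of the 30 neighbours, 5 genes on each side of a member, 2 were called higher and 0 lower, with changes from -0.16 to 0.93 and a median of 0.04. Over all genes, read by their brightest probe sets, 1.92% were called higher, 0.901% lower, and the median change was 0.01.

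**Figure D3:**
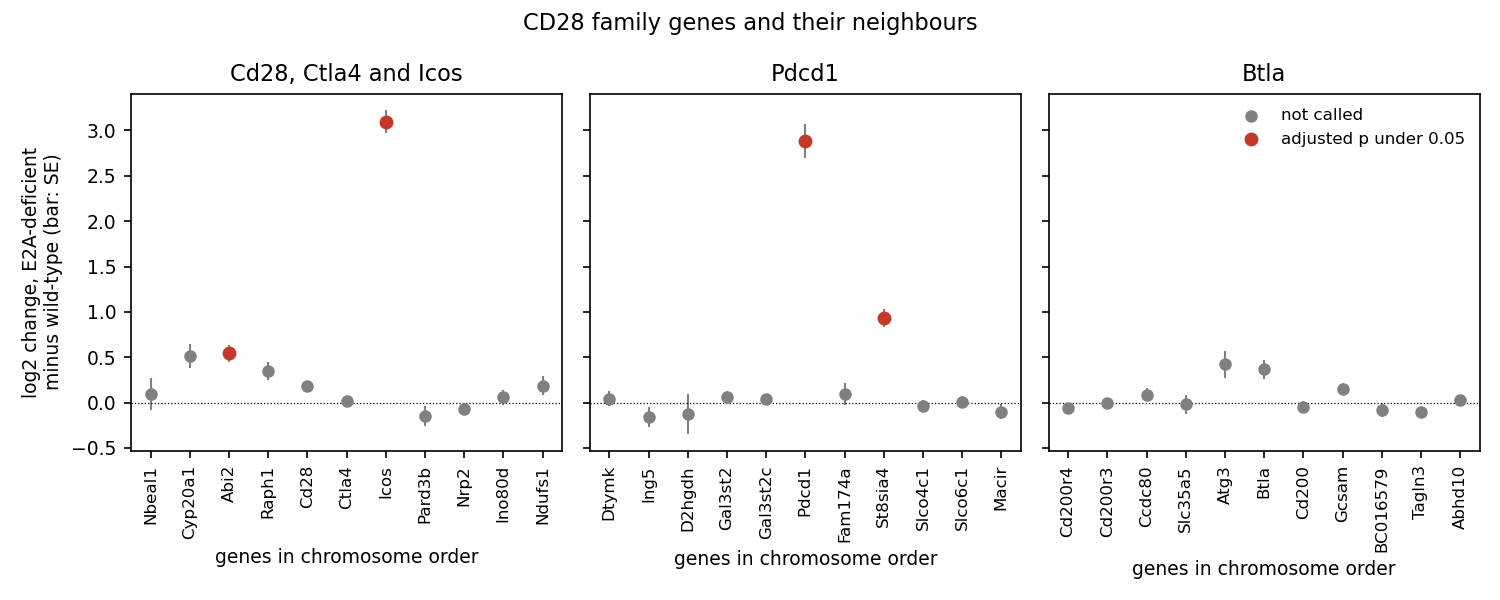
Log2 change, E2A-deficient minus wild-type, of each member and of the measured protein-coding genes next to it in chromosome order, with SE bars, red where the limma adjusted p was under 0.05. Icos at 3.10 stands beside Ctla4 at 0.01 and Cd28 at 0.18, and Pdcd1 at 2.88 has 1 called neighbour, St8sia4 at 0.93.

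E proteins bind DNA at the E box, CANNTG, so the RefSeq sequence just upstream of the members' starts is shown to let the called Pdcd1 be read beside the uncalled Ctla4 and Btla. These 3 of the 5 members matched the promoter table of GRCm38.p6. Each sequence holds the 250 bases before the start, 5′ to 3′ on the strand of the gene, with every CANNTG, which reads the same on both strands, in capitals.
Pdcd1, chr1:94052554-94052803, minus strand: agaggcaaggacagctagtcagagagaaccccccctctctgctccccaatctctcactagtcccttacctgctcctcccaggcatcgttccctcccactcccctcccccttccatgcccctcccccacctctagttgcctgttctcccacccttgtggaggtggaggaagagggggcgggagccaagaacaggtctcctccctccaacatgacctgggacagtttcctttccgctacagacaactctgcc
Ctla4, chr1:60908775-60909024, plus strand: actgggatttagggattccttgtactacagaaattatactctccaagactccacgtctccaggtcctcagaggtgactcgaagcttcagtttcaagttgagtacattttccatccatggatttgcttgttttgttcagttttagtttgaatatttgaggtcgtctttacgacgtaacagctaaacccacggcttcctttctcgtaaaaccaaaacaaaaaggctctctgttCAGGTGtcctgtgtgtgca
Btla, chr16:45224087-45224336, plus strand: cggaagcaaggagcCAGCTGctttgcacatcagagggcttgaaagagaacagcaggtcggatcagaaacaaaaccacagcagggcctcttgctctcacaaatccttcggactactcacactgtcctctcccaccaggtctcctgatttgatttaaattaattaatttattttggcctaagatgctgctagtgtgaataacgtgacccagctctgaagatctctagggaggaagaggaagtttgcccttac

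The Pdcd1 window held 0 matches to CANNTG, while Ctla4 and Btla held 1 each. In Ctla4 it was CAGGTG, which begins 19 bases before the start, and in Btla CAGCTG, which begins 236 bases before it. Of 32851 mouse promoter windows of the same length, 66.2% held at least 1 CANNTG, 17.2% held CACCTG or CAGGTG, and 13% held CAGCTG. The absence of these letters from the Pdcd1 window says nothing of sites elsewhere around the gene.

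The ligands gave no call. All 6 were measured, Cd80 and Cd86 for CD28 and CTLA-4, Icosl for ICOS, Cd274 and Pdcd1lg2 for PD-1, and Tnfrsf14 for BTLA, and limma called 0, while 2 had p under 0.05 before adjustment, as had 16.2% of all genes. The smallest p belonged to Pdcd1lg2, which encodes PD-L2, at 70.9 ± 1.16 in E2A-deficient and 61.1 ± 1.95 in wild-type cells (SD, n = 3 each; log2 change 0.21, limma adjusted p = 0.127). Cd86 gave 0.21 (0.278) and Cd274, which encodes PD-L1, 0.08 (0.699). The median change of the 6 was 0.05, and Cd80 and Pdcd1lg2 lay below the array median on all 6 arrays.

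Among the signalling and trafficking partners of these receptors 21 of 24 genes were read. Of the 21 genes, 2 were called higher and 0 lower, with a median change of 0.14. Before adjustment 5 of them had limma p under 0.05, against 16.2% of all genes. Over all genes 1.92% were called higher and 0.901% lower, which applies to the later lists too. Akt1, a kinase downstream of PI3 kinase, rose to 404 ± 37.4 in E2A-deficient cells, against 291 ± 13.7 in wild-type cells (SD, n = 3 each; 0.47, limma adjusted p = 0.0374). Lrba, whose product protects CTLA-4 from breakdown in lysosomes, rose to 288 ± 36.4 in E2A-deficient cells, against 190 ± 7.18 in wild-type cells (0.59, limma adjusted p = 0.0277). The 3 other probe sets of each gave changes between -0.06 and 0.10 and no call. Both calls were fragile. Akt1 kept its call only without E2A-deficient replicate 2, of the 6 arrays left out in turn (limma adjusted p 0.0371 to 0.137), and Lrba only without E2A-deficient replicate 2 or 3 (0.0387 to 0.0938). Neither passed with the replicate number as a block or with the beta-actin covariate, where Akt1 gave 0.44 and Lrba 0.66. Both calls were also lost with the Xist covariate (limma adjusted p = 0.0622 for Akt1 and 0.0567 for Lrba). Akt1 did not pass with an intensity trend and robust variances either (0.0676). The PI3 kinase subunit genes and the phosphatase genes Ptpn6 and Ptpn11 did not pass.

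Costimulatory and inhibitory receptors outside the family gave 1 call in each direction. Of 22 such genes 20 were read, of which 1 was called higher and 1 lower, with a median change of 0.02. Before adjustment 9 had limma p under 0.05, some higher and some lower, against 16.2% of all genes. Tnfrsf9, the TNF-receptor costimulator 4-1BB, rose to 138 ± 18.1 in E2A-deficient cells, against 93.9 ± 2.35 in wild-type cells (SD, n = 3 each; 0.54, limma adjusted p = 0.0449), while its 2 other probe sets gave -0.12 and 0.10 and no call. Cd5, which dampens TCR signals, fell to 72.1 ± 2.89 in E2A-deficient cells, against 119 ± 17.5 in wild-type cells (-0.70, limma adjusted p = 0.0261). Tnfrsf9 kept its call only without E2A-deficient replicate 1 (0.0128 to 0.137 over the arrays left out), and Cd5 only without wild-type replicate 2 (0.00853 to 0.106). Neither passed with the beta-actin covariate, where Tnfrsf9 gave 0.53 and Cd5 -0.49. Tnfrsf9 also did not pass with the replicate block, the Xist covariate, median centring or 16 added before the log2 (limma adjusted p 0.0569 to 0.0839). The checkpoint receptor genes Lag3 and Havcr2 did not pass and lay below the array median on all 6 arrays.

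All 23 regulators known to drive or restrain checkpoint genes or Icos in T cells were read. Of these, 5 were called higher and 0 lower, with a median change of 0.07. Before adjustment 9 had limma p under 0.05, against 16.2% of all genes. Tox2, a relative of the exhaustion regulator Tox, rose to 610 ± 39.6 in E2A-deficient cells, against 142 ± 37.7 in wild-type cells (SD, n = 3 each; 2.13, limma adjusted p = 0.00166). By its design that probe set may capture further transcripts, and a dim second probe set gave -0.03 and no call. Maf, a regulator of follicular helper and gamma-delta T cells, had 472, 492 and 551 in E2A-deficient cells, against 126, 124 and 115 in wild-type cells (2.04, limma adjusted p = 1.05e-04). Of its 5 other probe sets 4 were called higher by less, 0.42 to 1.10, and 1 was not called (0.05), so the size of the Maf change depends on the probe set. Gata3 (1.45), Ikzf2, which encodes Helios (1.05), and Tox (0.93) rose too. The other probe sets of Ikzf2 gave 1.06 (called) and 0.41 (not called), and those of Tox 0.44 (called) and 0.16 (not called). With the beta-actin covariate Gata3, at 1.37, and Tox, at 0.83, did not pass. The regulators that restrain Icos mRNA, Rc3h1, Rc3h2 and Zc3h12a, did not pass, nor did the genes of the NFAT and NR4A factors that act on Pdcd1. Foxp3, Prdm1, Tbx21, Irf4 and Bcl6 lay below the array median on all 6 arrays.

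Genes of follicular helper T cells, which use ICOS and PD-1, gave 11 measured members. Of these, 4 were called higher and 0 lower, with a median change of 0.12. Before adjustment 6 had limma p under 0.05, against 16.2% of all genes. Maf and Tox2 are also among the regulators above. Sh2d1a, the adaptor SAP of SLAM receptors, had 341, 364 and 390 in E2A-deficient cells, against 79.8, 61.8 and 56.3 in wild-type cells (2.46, limma adjusted p = 2.87e-04), and its groups lay far apart. The cytokine gene Il4 rose to 146 ± 24.3 in E2A-deficient cells, against 67.5 ± 2.40 in wild-type cells (SD, n = 3 each; 1.09, limma adjusted p = 0.00519), and with the beta-actin covariate, at 1.13, it did not pass. Bcl6, which directs the follicular helper fate, Il21 and Ascl2 lay below the array median on all 6 arrays. Over the 5 lists 10 of 78 distinct genes were called higher and 1 lower, against 1.92% and 0.901% of all genes. With the beta-actin covariate 4 and 0 were called, and 71 and 43 of all 45037 probe sets.

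**Figure D4:**
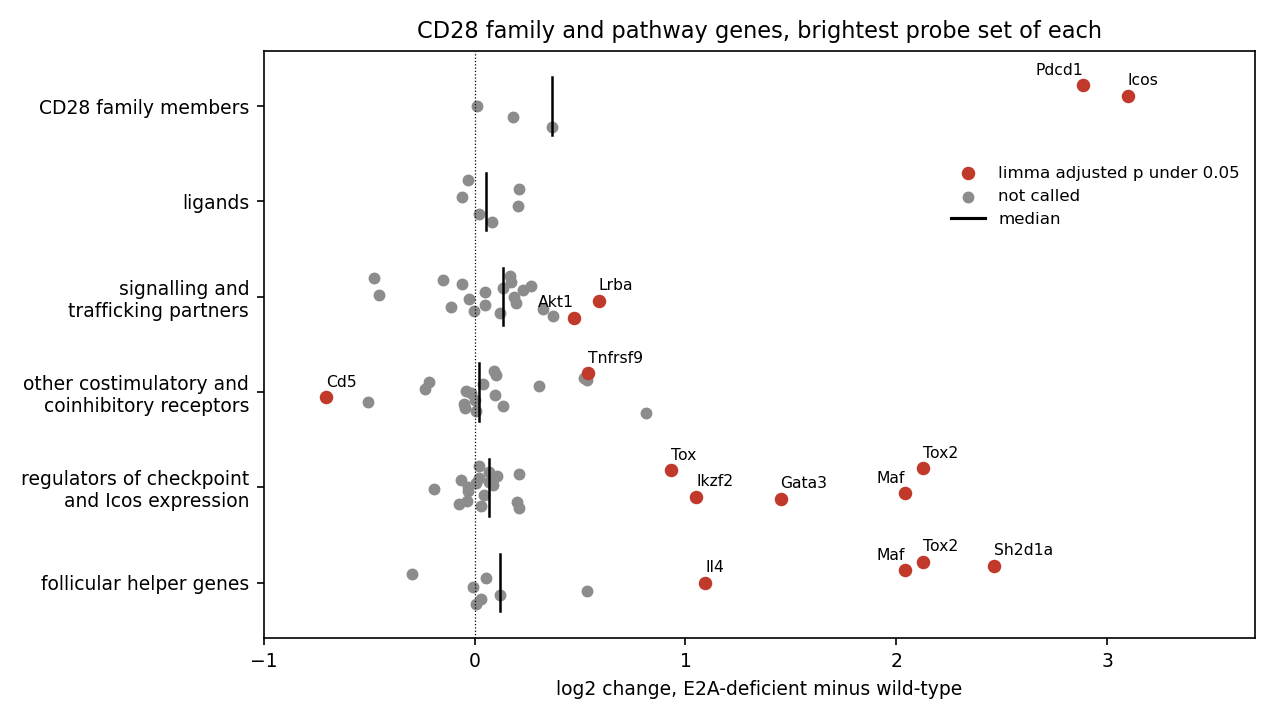
Log2 change, E2A-deficient minus wild-type, of the 5 members and of the measured genes of 5 pathway lists, each by its brightest probe set, with the median of each list as a line and called genes in red. Pdcd1 (2.88) and Icos (3.10) lie beyond all genes of the lists, the nearest of which is Sh2d1a at 2.46.

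Markers of the sorted cells and of other cells were set beside these values. The DN2 markers Kit, Il2ra and Cd44 stood above the array medians in both groups, at 346, 1005 and 416 in E2A-deficient cells and 287, 906 and 404 in wild-type cells. Of the 7 DN2 markers read by their brightest probe sets limma called 0, while 3 had p under 0.05 before adjustment, against 16.2% of all genes. These were Kit and Cd24a with higher and Bcl11b with lower values in E2A-deficient cells. The summed intensity of the 7 markers was 5281 to 6201 in E2A-deficient and 5432 to 6028 in wild-type cells. Bcl11b, a factor of commitment to the T-cell fate, read 864 ± 27.0 in E2A-deficient and 1167 ± 194 in wild-type cells without overlap (SD, n = 3 each; -0.42, limma adjusted p = 0.163), and was called lower without wild-type replicate 1 (-0.55, 0.0393). Of its 3 other probe sets, with -0.87, -0.77 and -0.36, that at -0.77 was called lower (limma adjusted p = 0.0286). Il7r gave -0.37 and Ptcra -0.14, with overlapping groups. Cd8b1 lay below the array median on all arrays, and Cd4 had 82.3 in E2A-deficient and 85.3 in wild-type cells.

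Some markers of cells that can carry ICOS or PD-1 were called higher, and others of the same lists were not. Over all genes 1.92% were called higher and 0.901% lower. Of 9 innate lymphoid markers read, Rora, Gata3, Id2 and Zbtb16 were called higher and 0 lower, the median change was 0.31, and the sum was 3082 to 3522 in E2A-deficient and 1814 to 2181 in wild-type cells. The 2 other probe sets of Id2 gave 0.15 and 0.06 and no call. Those of Zbtb16 gave 1.84 (called) and 0.69 (not called). The other probe sets of Rora gave 1.02 to 1.85 where called higher and -0.06 to 0.04 where not called. Il17rb, a receptor subunit for IL-25, read 767 ± 89.0 in E2A-deficient and 936 ± 114 in wild-type cells without overlap (SD, n = 3 each; -0.29, limma adjusted p = 0.353). The innate lymphoid cytokine genes Il5 and Il13 lay below the array median on every array. Of 5 gamma-delta T-cell markers read, Cd163l1 and Maf were called higher, with sums of 1159 to 1577 in E2A-deficient and 577 to 642 in wild-type cells, but the median change was 0.02. Sox13 of that list read 148 ± 11.9 in E2A-deficient and 196 ± 11.97 in wild-type cells without overlap (SD, n = 3 each; -0.41, limma adjusted p = 0.0586), Blk gave 0.02, and Il17a lay below the array median. Of 7 regulatory T-cell markers read, Ikzf2 and Gpr83 were called higher, with sums of 1907 to 2126 in E2A-deficient and 1151 to 1259 in wild-type cells and a median change of 0.09. Nrp1 gave -0.20, and the defining gene Foxp3 (-0.04) lay below the array median on all arrays. Gpr83 kept its call only without wild-type replicate 1 (limma adjusted p 0.0492 to 0.0753 over the arrays left out), and Cd163l1 lost it without wild-type replicate 2 (0.0607) or E2A-deficient replicate 3 (0.0566). With the beta-actin covariate Gpr83 (0.34), Cd163l1 (2.18), Gata3 (1.37) and Zbtb16 (1.51) did not pass, against 0.35, 2.01, 1.45 and 1.40 without it. Of 7 markers read for later alpha-beta thymocytes and T cells, Klf2 was called higher, with sums of 649 to 667 in E2A-deficient and 546 to 567 in wild-type cells. Their median change was 0.05, and 3 had limma p under 0.05 before adjustment, against 16.2% of all genes. These were Klf2, Ccr7 (0.45) and S1pr1 (0.22), while Cd4, Cd8a, Cd8b1 and Cd69 gave -0.05 to 0.05. The part of any of these cell types in the Icos and Pdcd1 results was not tested.

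By brightest probe sets the remaining marker lists gave 1 call. For the counts of limma p under 0.05 before adjustment given here, the share over all genes was 16.2%. Thymic epithelial markers summed to 534 to 564 in E2A-deficient and 463 to 502 in wild-type cells, with 0 of 6 called and 1 with p under 0.05 before adjustment. This was Krt8, at 119 ± 17.9 in E2A-deficient and 86.5 ± 11.2 in wild-type cells without overlap (SD, n = 3 each; 0.46, limma adjusted p = 0.165). B-lineage markers summed to 557 to 584 in E2A-deficient and 597 to 615 in wild-type cells, with 0 of 7 called and 1 with p under 0.05 before adjustment. Sums overlapped between the groups for 7 NK-cell, 8 myeloid, 7 dendritic and 3 erythroid markers read, among which only the myeloid gene Lyz2 was called, lower by 0.50, a call kept only without E2A-deficient replicate 3 of the arrays left out (limma adjusted p 0.0196 to 0.0822). Of the NK-cell markers 1 had limma p under 0.05 before adjustment. This was Gzma, at 511 ± 28.7 in E2A-deficient and 658 ± 80.1 in wild-type cells without overlap (SD, n = 3 each; -0.36, limma adjusted p = 0.161). Nkg7 read 1097 in E2A-deficient and 970 in wild-type cells (0.18, not called). Of Ccr2 in the dendritic list the brightest probe set gave 0.16 and no call. Of its 3 others 2 were called higher, by 0.46 and 1.07 (limma adjusted p = 0.0436 and 0.00428). Among these markers, Ms4a1, Cd79a, Pax5, Ebf1, Ncr1, Klrd1, Klrk1, Itgam, Cd14, Hba-a1, Foxn1 and Psmb11 were below the array median on all 6 arrays.

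Genes with a pattern like that of a member were sought among 9095 genes brighter than the median gene, by Pearson correlation over the 6 arrays, which carries the difference between the groups and is given as a description. Nearest to Icos were Homer2 (r = 0.997), the Notch ligand gene Jag1 (0.996), Niban1 (0.995), Mrps11 (0.994) and Igfbp4 (0.993). Of these all but Mrps11 were called higher, Homer2 by 2.99 and Jag1 by 1.31. Nearest to Pdcd1 were the T-cell regulator Lef1 (0.999), Dlst (0.998), Gng2 (0.996), Map7d1 (0.996) and Lsp1 (0.994), all called higher, with changes between 0.50 and 0.80, of which Dlst, Map7d1 and Lsp1 did not pass with the beta-actin covariate (0.54, 0.57 and 0.64) and Dlst not without wild-type replicate 2 (limma adjusted p = 0.0503). For Cd28 they were Podxl (0.996), Mrpl27 (0.992), Celsr1 (0.991), 1110038F14Rik (0.991) and Tpi1 (0.990), of which all but 1110038F14Rik were called higher, Podxl by 1.23 and the others by 0.40 to 0.74. With the beta-actin covariate 0 of these 4 passed (Podxl 1.09, Mrpl27 0.43, Celsr1 0.61 and Tpi1 0.36). Over the arrays left out in turn Podxl kept its call each time, Celsr1 in 2 of the 6 cases and Mrpl27 and Tpi1 in 1 each (limma adjusted p 0.0363 to 0.145 for these 3). For Btla they were Mns1, Dynll2, Prkar2a, Copz1 and Pyroxd2 (0.993 to 0.976), and for Ctla4 Adss, Sinhcaf, Dusp6, Tmem185b and Vps26a (0.980 to 0.967), with 0 of these 10 called. An r over 0.95 was reached by 172 genes for Icos, 212 for Pdcd1, 174 for Cd28, 32 for Btla and 13 for Ctla4.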

How the data were processed

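Intensities of 6 Affymetrix mouse arrays, 1 value per probe set, were used as the authors deposited them. RMA is the only tool named, per the submitters' processing notes, with no version, and the sources used here do not say how its values came to the linear scale. Per the labels' protocols, RNA went through a second in vitro transcription, which favours 3' ends. As the table was linear, log2(intensity + 1) was analysed with no filter. After 64 control probe sets were set aside, 45037 were fitted with lmFit and eBayes of limma 3.58.1 under R 4.3.3. Tests were two-sided, p-values were adjusted by Benjamini and Hochberg over all of them, and the threshold was 0.05. The annotation named 1 gene for 34945, several for 932 and none for 9160. Of those with 1 gene, 34741 had their Entrez identifier in RefSeq GRCm38.p6, used for names, neighbours and promoters only. List genes took their brightest probe set. The fit was tested on simulated data. The plots were made in Python 3.11.15 with matplotlib 3.10.9.

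The members and lists were chosen with earlier results of these data known. Named were all member probe sets, Tcf3, called genes of each list or its 3 smallest p, neighbours, and 5 genes of like pattern per member, while uncalled marker genes were named after their values were seen. The number of arrays limits the precision.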

Additional observations from a re-analysis of the deposited data

How the results depend on the processing

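Of the alternatives, the replicate block, log2 with no constant or with 16 added, quantile normalization, median centring, the filter on dim probe sets, array weights, robust variances with an intensity trend, the Xist covariate and each array left out all kept the 4 calls among the members. With the beta-actin covariate 3 remained, since Icos 1421931_at (0.70) lost its call. Icos 1436598_at ranged from 2.92 (16 added) to 3.23 (beta-actin covariate), and Pdcd1 from 2.68 to 3.07. The mean of all Icos probe sets changed by 1.72. Ctla4 turned to -0.017 with that covariate and ranged from -0.012 to 0.034 over the arrays left out. Over all probe sets, where 543 were called higher and 261 lower, the replicate block gave 309 and 162 and the beta-actin covariate 71 and 43. Leaving out 1 array gave 243 to 380 higher and 115 to 194 lower. Of the pathway genes, 10 were higher and 1 lower. The covariate left 4 and 0, the filter on dim probe sets and the robust trend each gave 2 lower, and leaving out 1 array gave 7 to 10 higher and 0 to 1 lower. The cause of these shifts was not tested, and the fits with an array left out also held fewer samples. With the replicate block the pathway genes gave 8 higher and 1 lower. Over all probe sets, deviations from the group means were hardly correlated between arrays sharing a number (r = 0.041, 0.041 and -0.036 for numbers 1 to 3). Whether such arrays share more than a number is not known. Signal over background was not measured here, which limits how far the values of the dim Cd28, Ctla4 and Btla can be read.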

Other observations

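In 2 further inhibitory receptors the probe sets disagreed, and both are named after their values were seen. The brightest probe set of Cd160, a receptor of HVEM as BTLA is, changed by 0.81 and did not pass (limma adjusted p = 0.137), at 576, 565 and 649 in E2A-deficient cells and 469, 340 and 245 in wild-type cells. Without wild-type replicate 1 it was called (1.04, limma adjusted p = 0.0308). Another Cd160 probe set rose by 0.62 (limma adjusted p = 0.0374), to 247 ± 32.1 in E2A-deficient cells, against 160 ± 11.8 in wild-type cells (SD, n = 3 each), and the other 2 gave 0.27 and -0.01 and no call.

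Vsir, which encodes the checkpoint receptor VISTA, gave 0.09 by its brightest probe set and no call, while its other probe set rose by 0.45 (limma adjusted p = 0.0420), to 110 ± 2.60 in E2A-deficient cells, against 80.9 ± 8.004 in wild-type cells (SD, n = 3 each).

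Trat1, a transmembrane adaptor of the TCR that has been tied to CTLA-4 transport, was read at 68.9, 67.1 and 69.6 in E2A-deficient cells and 111, 84.8 and 93.2 in wild-type cells. Its change of -0.48 did not pass (limma adjusted p = 0.0669), and its other probe set gave 0.02 and no call. Of 16 alternatives it passed in 2, the filter on dim probe sets (0.0458) and an intensity trend with robust variances (0.0156). With an array left out it was never called (limma adjusted p 0.0559 to 0.187). Tnfrsf18, which encodes the costimulator GITR, gave 0.53 and did not pass (limma adjusted p = 0.0862). It passed in 2 of 16 alternatives, the replicate block (0.0333) and the filter on dim probe sets (0.0486). No array left out gave it a call (limma adjusted p 0.0889 to 0.237). Both are also named after their values were seen.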
